A study of Mus musculus with 10 samples.

Results

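Imprinted genes are transcribed mainly from the allele inherited from 1 parent, and 45 of them were followed here among the 52227 genes of the count table. They were taken by symbol from known imprinted clusters of the mouse genome and include *Peg3* and *Asb4*, which the study itself picked from these embryos as cortical hem (CH) genes that depend on *Lmx1a*, so that their lower level here is not independent evidence. RNA-seq libraries were made from the laser-captured CH, the medial signaling center of the telencephalon that borders the choroid plexus, at e13.5. The groups are 5 wild-type embryos and 5 *Lmx1a*-/- embryos homozygous for the *drJ* allele, a null allele carried on a mixed background. Every cell of the embryo carries the mutation from the start of development. In the telencephalon, by the paper, *Lmx1a* is expressed only in the CH and the choroid plexus epithelium. The sections of 1 embryo were pooled into 1 library, so that each replicate is an embryo.

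Imprinting rests on DNA methylation set differently in egg and sperm at imprinting control regions, each of which governs a cluster of neighboring genes. Within a cluster, some genes are expressed from the paternal and others from the maternal copy, often around a long noncoding RNA. Many of these genes act on growth of the embryo, on the placenta and on the developing brain. The read counts used here add the reads of both alleles, so a change of level and a change of imprinting cannot be told apart.

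The libraries held between 19407267 and 33130138 counts in wild-type embryos and between 19145952 and 36462780 in *Lmx1a*-/- embryos. Of the 45 imprinted genes, 43 had at least 10 counts in at least 3 libraries and were tested among 21664 genes. *Phlda2*, a regulator of placental growth, and the potassium channel gene *Kcnk9* did not reach this level, with at most 0.623 and 0.591 normalized CPM in a library. Levels are TMM-normalized CPM, that is, counts scaled to a library size common to all libraries, and are given as mean ± SD over embryos. A false discovery rate (FDR) under 0.1 by edgeR's quasi-likelihood test was the threshold between the genotypes. Fewer cells of a type in the captured tissue and less RNA per cell cannot be told apart in such bulk libraries.

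Wild-type embryo 1 was the only wild-type library with transcripts of the Y chromosome, at 333 CPM summed, and had an *Xist* level of 0.98 CPM. The other wild-type embryos had *Xist* levels of 4515 to 5127 CPM. All *Lmx1a*-/- libraries held Y-linked transcripts, at 405 to 467 CPM. Sex and genotype are therefore nearly confounded, and wild-type embryo 1 is the comparison within 1 sex. *Lmx1a* transcript itself was at 71.2 normalized CPM in wild type and 114 in *Lmx1a*-/- CH (log2 fold change 0.68, FDR = 0.0658 by edgeR's quasi-likelihood test). The counts of its transcript do not read the mutation and therefore do not check the genotype labels. Marker lists of the tissues around the CH differed too. Choroid plexus markers summed to 177 to 530 normalized CPM in wild-type and 174 to 260 in *Lmx1a*-/- libraries, with 4 of 18 tested markers lower and *Ttr*, the defining one, at 78.3 and 7.23. Meninges and mesenchyme markers summed to 486 to 1170 and 414 to 682, with 3 of 20 lower. Red blood cell markers summed to 643 to 1489 and 268 to 581, with 0 of 9 called by edgeR and 6 lower at an unadjusted p under 0.05. Of the CH markers, 6 of 15 were lower and 1, *Lmx1a*, was higher, and they summed to 2562 to 4812 and 3172 to 4249. Beside these counts, 2.29% of all genes tested were lower and 1.72% higher past the threshold. At an unadjusted p under 0.05 the shares were 8.7% and 7.66%.

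In the *Lmx1a*-/- CH, 5 imprinted genes were lower and 0 were higher past the threshold. The 5 lower genes were *Peg3* and *Usp29* of the *Peg3* cluster, *Peg10* and *Asb4* of the *Peg10*-*Sgce* cluster, and *Igf2*. They are 11.6% of the tested imprinted genes, beside 2.29% of all genes tested that were lower. This share is partly set in advance, since the study had picked *Peg3* and *Asb4* as lower in these same embryos. Of all genes, 1.72% were higher. At an unadjusted p under 0.05, 12 imprinted genes had lower and 6 had higher levels, beside 8.7% and 7.66% of all genes. DESeq2 called 6 lower and 2 higher, beside 4.51% and 3.65% of all genes. The median log2 fold change of the 43 genes was 0.06, against -0.0049 over all genes tested, and 20 of them had a negative and 23 a positive value. In each of the 5, the lowest wild-type embryo was still above the highest *Lmx1a*-/- embryo, as in 2.27% of all genes. The reverse held in 2 of the 43, *Kcnq1ot1* and *Mkrn3*, and in 2.17% of all genes.

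**Figure D1:**
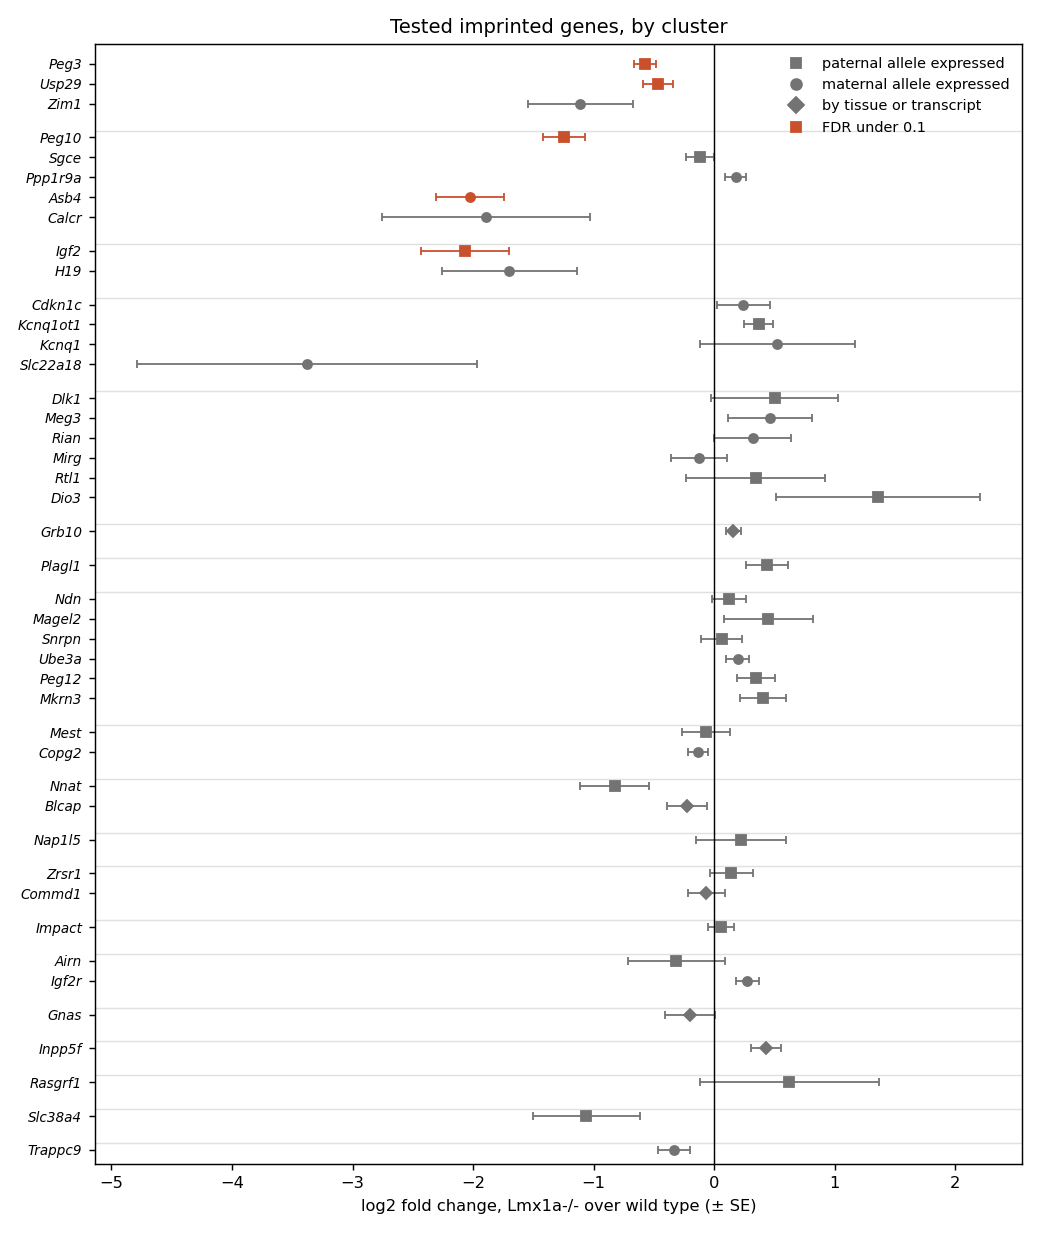
The log2 fold change (*Lmx1a*-/- over wild type, ± SE) of the 43 tested imprinted genes, listed by cluster, with squares for genes expressed from the paternal allele, circles for the maternal allele and diamonds for genes whose allele varies by tissue or transcript. The 5 genes with FDR under 0.1 lie between -2.07 and -0.47 and belong to the first 3 clusters, while 5 of 6 genes of the *Dlk1*-*Meg3* cluster and 6 of 6 of the *Snrpn* cluster lie right of 0 without passing the threshold.

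Genes of both parental alleles were among the 5. Among the 23 genes expressed from the paternal allele, 4 were lower (*Peg3*, *Usp29*, *Peg10* and *Igf2*) and the median log2 fold change was 0.12. Among the 10 tested genes expressed from the maternal allele in most tissues, 1, *Asb4*, was lower, and the median was -0.13. None of the 5 genes with maternal expression in certain tissues and none of the 5 whose allele varies by tissue or transcript passed the threshold by edgeR. Of these 10, *Calcr* and *Trappc9* had lower and *Grb10* and *Inpp5f* higher values at an unadjusted p under 0.05. The shares of all genes at that p were 8.7% and 7.66%.

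The *Peg3* cluster lies on chromosome 7 and includes *Peg3*, *Usp29* and *Zim1*. *Peg3* encodes a zinc-finger protein known for its part in growth and maternal behavior, *Usp29* encodes a ubiquitin protease, and both are expressed from the paternal allele. They start back to back, *Peg3* (ENSMUSG00000002265, chr7:6703892-6730431, minus strand) and *Usp29* (ENSMUSG00000051527, chr7:6730578-6967219, plus strand), on the GRCm38 build with GENCODE M21 gene models. The 146 bases between the annotated genes, at chr7:6730432-6730577, are shown on the plus strand because both genes fell and transcription leaves this gap in both directions. The letters come from the RefSeq promoter windows of GRCm38.p6. Capitals mark CCAAT, which occurs 2 times.

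between Peg3 and Usp29: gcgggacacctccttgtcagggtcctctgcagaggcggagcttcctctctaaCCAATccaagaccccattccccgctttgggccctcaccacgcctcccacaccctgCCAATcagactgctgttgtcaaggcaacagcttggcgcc

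*Peg3* stood at 1056, 1187, 832, 1051 and 1157 normalized CPM in wild-type embryos 1 to 5. In *Lmx1a*-/- embryos 1 to 5 it stood at 709, 688, 676, 679 and 788. The genotypes did not overlap, the *Lmx1a*-/- embryos lay close together, and wild-type embryo 3 was the lowest of its group. The mean fell from 1057 ± 139 to 708 ± 46.6, which is 67% of the wild-type level (log2 fold change -0.58, SE 0.091, FDR = 0.00526 by edgeR's quasi-likelihood test, n = 5 and 5). Per kilobase of exon, *Peg3* at 79.3 CPM lay above 98.9% of tested genes in the wild-type CH. Its exons share no base with another gene.

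*Usp29* stood at 52.3, 55.9, 45.4, 49.97 and 54.6 normalized CPM in wild-type and at 42.8, 34.6, 41.2, 26.7 and 41.2 in *Lmx1a*-/- embryos 1 to 5. The groups did not overlap, but the nearest libraries, wild-type embryo 3 and *Lmx1a*-/- embryo 1, were close. The mean fell from 51.6 ± 4.13 to 37.3 ± 6.71 (log2 fold change -0.47, SE 0.12, FDR = 0.0739 by edgeR's quasi-likelihood test). This call was the least firm of the 5. It passed in 3 of the 10 fits that left out 1 embryo, with an FDR of up to 0.147 in the others. Of the exonic bases of *Usp29*, 14.8% are shared with *Zim3* and *Gm27675*.

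The maternally expressed *Zim1*, another zinc-finger gene, ran next to *Peg3* at a low level. It averaged 9.67 ± 4.69 normalized CPM in wild type and 4.48 ± 3.18 in *Lmx1a*-/- CH, and the groups overlapped because *Lmx1a*-/- embryo 1 was at 9.84 (log2 fold change -1.11, SE 0.44, FDR = 0.22 by edgeR's quasi-likelihood test). Wild-type embryo 4 was the highest library, at 17.1. Without *Lmx1a*-/- embryo 1 the log2 fold change was -1.63 and passed the threshold, at an FDR of 0.0574. No further gene within 500 kb of *Peg3* and *Usp29* was called among 18 tested by edgeR. At an unadjusted p under 0.05 there was 1 of them, beside 8.7% lower and 7.66% higher of all genes.

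In the *Peg10*-*Sgce* cluster on chromosome 6, 2 of 5 genes were lower and 3 did not pass the test. *Peg10* (ENSMUSG00000092035, chr6:4747306-4760517, plus strand) derives from a retrotransposon and encodes a gag-pol-like protein needed in the placenta. *Sgce*, which encodes epsilon-sarcoglycan of the membrane complex at muscle and nerve cells, starts 99 bases away on the other strand, at chr6:4674350-4747207. Both are paternally expressed. *Asb4* (ENSMUSG00000042607, chr6:5383386-5433022, plus strand), a substrate receptor of ubiquitin ligases, is maternally expressed and starts 636 kb further along. *Ppp1r9a*, which encodes the actin-binding protein neurabin, lies between them, and *Calcr*, the calcitonin receptor gene, lies on the other side.

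*Asb4* showed the largest fold among imprinted genes above 50 normalized CPM, and it has 2 annotated RefSeq starts. The 250 bases before each start are shown so that they can be compared, with TAATTA, the core letters bound by many homeodomain proteins of the LIM class to which Lmx1a belongs, in capitals. The first window is chr6:5383136-5383385, ahead of the gene, and holds 1 TAATTA. The second is chr6:5390160-5390409, inside the annotated gene, and holds 0. Both are on the plus strand of GRCm38.p6, from RefSeq.

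before the first Asb4 start: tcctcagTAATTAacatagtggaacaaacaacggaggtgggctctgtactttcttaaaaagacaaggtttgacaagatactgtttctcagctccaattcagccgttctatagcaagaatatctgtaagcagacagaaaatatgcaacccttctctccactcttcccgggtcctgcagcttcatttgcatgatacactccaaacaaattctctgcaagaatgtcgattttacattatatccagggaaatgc

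before the second Asb4 start: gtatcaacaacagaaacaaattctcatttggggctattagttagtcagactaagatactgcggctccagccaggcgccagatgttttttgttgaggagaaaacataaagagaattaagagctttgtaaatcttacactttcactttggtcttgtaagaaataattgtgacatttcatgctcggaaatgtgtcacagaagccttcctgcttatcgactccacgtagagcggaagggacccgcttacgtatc

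The windows of 36 of the 45 genes were in the RefSeq promoter table, which gave 55 windows of 300 bases each (250 before and 50 after a start). Not matched were *Peg10*, *Sgce*, *H19*, *Cdkn1c*, *Kcnq1*, *Rtl1*, *Kcnk9*, *Trappc9* and *Impact*. On both strands, TAATTA, which reads the same on either, was in 2 of the 55 windows (3.64%), the first of *Asb4* and 1 of *Igf2*, and in 5.29% of all 32851 windows. CCAAT was in 32.7% of the imprinted and 37.4% of all windows. TGACGTCA, the full cAMP response element, was in 3 (5.45%) and 1.79%, and the 3 windows belong to *Meg3* and to *Peg3* and *Usp29*, whose windows overlap each other. AAGATGGC, the core of the YY1 motif, was in 1.82% and 2.75%. The windows held a median of 13 CpG against 7 over all windows. Each match describes letters only and none is a measured binding site.

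*Asb4* stood at 116, 128, 57.1, 67.2 and 122 normalized CPM in wild-type embryos 1 to 5. In *Lmx1a*-/- embryos 1 to 5 it stood at 18.95, 19.02, 19.3, 19.9 and 43.0. Wild-type embryos 3 and 4 were well below the other wild-type embryos, *Lmx1a*-/- embryo 5 stood apart from its group, and the lowest wild-type library still lay above it. The mean fell from 98.1 ± 33.3 to 24.04 ± 10.6, or 24.5% of the wild-type level (log2 fold change -2.03, SE 0.28, FDR = 0.00249 by edgeR's quasi-likelihood test). Per kilobase of exon *Asb4* lay above 94.2% of tested genes in the wild-type CH.

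*Peg10* stood at 263, 378, 192, 216 and 337 normalized CPM in wild-type embryos and at 106, 116, 105, 107 and 150 in *Lmx1a*-/- embryos. Wild-type embryos 3 and 4 were again the lower of their group and *Lmx1a*-/- embryo 5 again the highest, with no overlap. The mean fell from 277 ± 78.8 to 117 ± 19.2, or 42.2% of the wild-type level (log2 fold change -1.25, SE 0.17, FDR = 0.00249 by edgeR's quasi-likelihood test). Neither *Peg10* nor *Asb4* shares exonic bases with another gene.

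**Figure D2:**
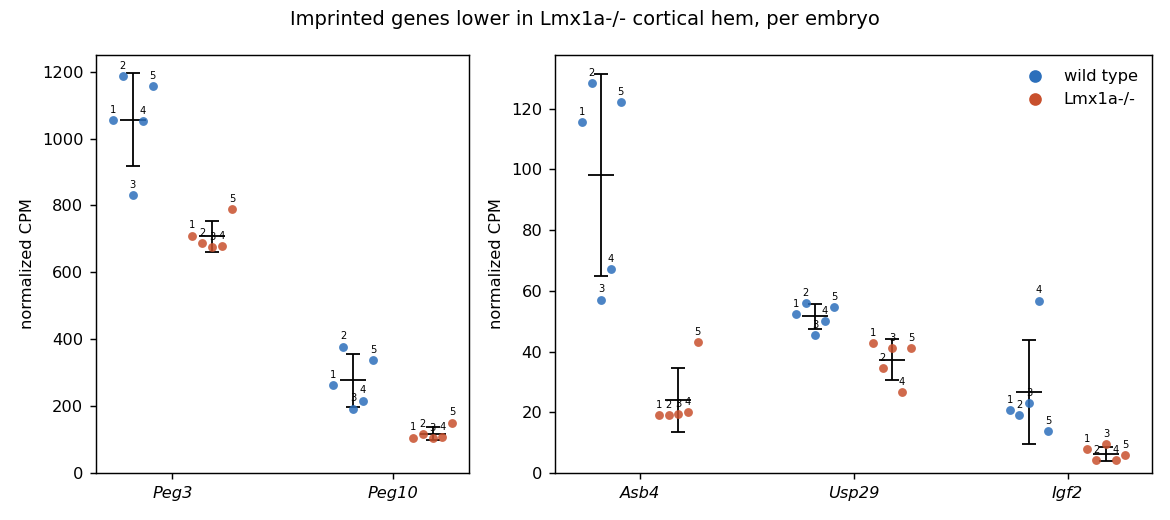
Normalized CPM of the 5 imprinted genes that were lower in *Lmx1a*-/- CH, with 1 point per embryo (its number beside it), wild type in blue and *Lmx1a*-/- in orange, and bars for the mean ± SD of 5 embryos. The 2 colors do not overlap in any gene. *Asb4* in *Lmx1a*-/- embryo 5 (43.0) and *Igf2* in wild-type embryo 4 (56.8) stand apart from their groups.

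*Sgce* was at 37.3 ± 4.73 normalized CPM in wild type and 34.3 ± 4.28 in *Lmx1a*-/- CH, and the groups overlapped (log2 fold change -0.12, SE 0.11, FDR = 0.661 by edgeR's quasi-likelihood test). *Ppp1r9a* was at 237 ± 27.6 and 268 ± 20.4 (log2 fold change 0.18, SE 0.088, FDR = 0.331). *Calcr* was near the detection limit, at 0.488 ± 0.196 and 0.137 ± 0.167 normalized CPM, and its log2 fold change of -1.89 did not pass (SE 0.86, FDR = 0.296).

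To ask whether neighbors moved by the same amount, the log2 ratio of 2 genes was taken within each library, which cancels the library's scaling. Of 7 pairs compared, *Peg3* with *Usp29* and *Peg10* with *Sgce* were taken because they are the imprinted genes on opposite strands that start within 1 kb of each other, and the other 5 were chosen after their values were seen. The log2 ratio of *Peg10* to *Sgce* was 2.85, 3.14, 2.63, 2.63 and 3.03 in wild-type embryos and 1.76, 1.95, 1.65, 1.57 and 1.88 in *Lmx1a*-/- embryos. The ratio was lower in every *Lmx1a*-/- embryo, by 1.09 on average from a mean of 2.86 (exact permutation test, two-sided, p = 0.00794, the smallest that 5 against 5 can give). Adjusted over all 7 pairs, this p of the permutation test was 0.0185. That value depends on pairs chosen after their values were seen, since *Peg10* with *Asb4* and *Asb4* with *Ppp1r9a* had the same p. *Peg10* had already been called lower and *Sgce* had not, so the ratio is not independent evidence. The ratio of *Peg3* to *Usp29* was 4.35 ± 0.091 in wild type and 4.27 ± 0.26 in *Lmx1a*-/- CH, a mean difference of -0.082 that was within the spread (exact permutation test, two-sided, p = 0.516, adjusted p = 0.602).

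The other pairs are a description. *Asb4* relative to *Ppp1r9a* had a log2 ratio of -1.34 ± 0.39 in wild type and -3.56 ± 0.51 in *Lmx1a*-/- CH, and *Peg10* relative to *Asb4* had 1.53 ± 0.22 and 2.35 ± 0.31, and the genotypes did not overlap in either. The mean ratio of *Nnat* to *Blcap* was 6.35 ± 0.12 and 5.65 ± 0.7, that of *Igf2* to *H19* -3.35 ± 0.51 and -3.88 ± 0.34, and that of *Kcnq1ot1* to *Cdkn1c* 4.01 ± 0.55 and 4.09 ± 0.21, each with overlap. Since these pairs were picked for their values, the ratios are given without a test.

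**Figure D3:**
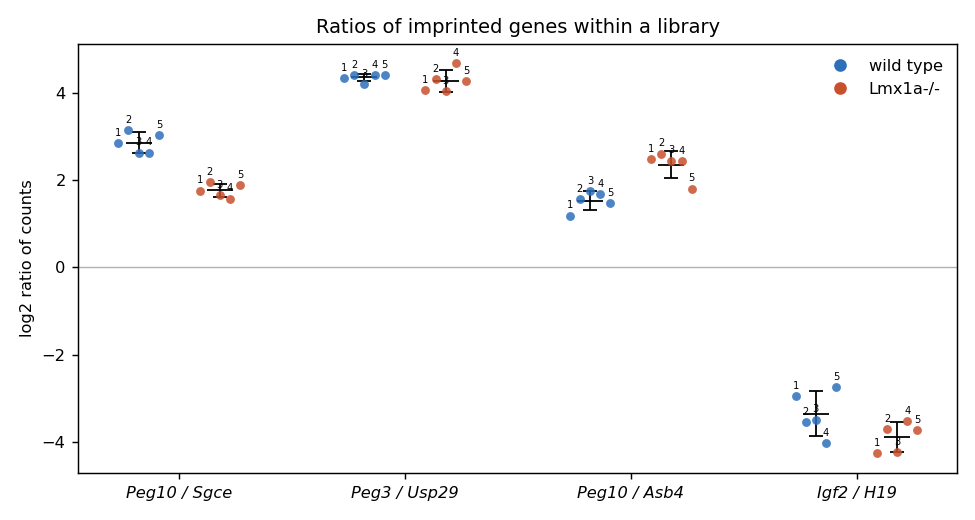
The log2 ratio of the counts of 2 imprinted genes within a library for 4 pairs, with 1 point per embryo (its number beside it) and bars for the mean ± SD of 5 wild-type (blue) and 5 *Lmx1a*-/- (orange) embryos. *Peg10* to *Sgce* separates the genotypes with *Lmx1a*-/- lower, *Peg10* to *Asb4* separates them with *Lmx1a*-/- higher, and the other pairs overlap.

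Among genes that are not in the list of 45, 15 were tested within 500 kb of *Peg10* or *Asb4*. Of these, 3 passed the threshold, all on the *Asb4* side, beside 2.29% lower and 1.72% higher of all genes tested. *Pdk4*, which encodes a kinase that restrains pyruvate oxidation, lies 50.3 kb from *Asb4* and fell from 1.99 ± 0.82 to 0.652 ± 0.2 normalized CPM (log2 fold change -1.6, SE 0.41, FDR = 0.0645 by edgeR's quasi-likelihood test). *Pon2*, a paraoxonase gene itself reported as imprinted in some tissues, lies 84.9 kb on the other side and fell from 21.3 ± 3.52 to 14.2 ± 2.99 (log2 fold change -0.58, SE 0.16, FDR = 0.0867). *Dync1i1*, a dynein chain gene of neurons, lies 293 kb away and rose from 0.875 ± 0.65 to 3.42 ± 0.8 (log2 fold change 1.98, SE 0.53, FDR = 0.0752). None of the 11 non-member genes tested around *Peg10* was called by edgeR or had an unadjusted p under 0.05.

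**Figure D4:**
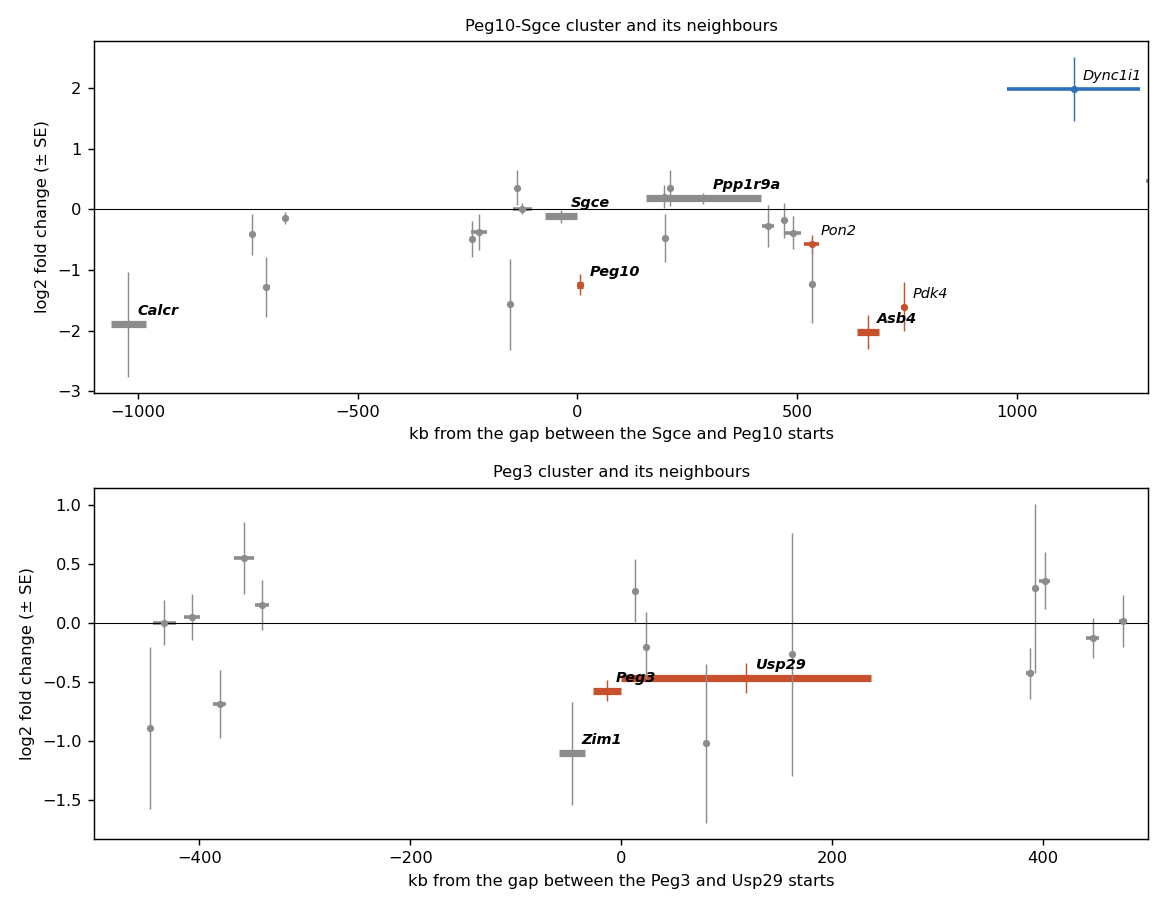
The log2 fold change (± SE) of the tested genes, drawn over the length of each gene, by distance in kb from the gap between the *Sgce* and *Peg10* starts (top) and between the *Peg3* and *Usp29* starts (bottom), with imprinted genes of the list named in bold, genes lower past the threshold in orange and higher in blue. At the top, *Peg10* and *Asb4* lie low with *Sgce* and *Ppp1r9a* near 0, and at the bottom *Peg3* and *Usp29* are the only genes past the threshold.

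The *H19*-*Igf2* cluster on chromosome 7 joins a fetal growth factor, the paternally expressed *Igf2* (ENSMUSG00000048583, chr7:142650766-142666816, minus strand), with the maternally expressed long noncoding RNA *H19*. *Igf2* stood at 20.6, 18.9, 22.9, 56.8 and 13.7 normalized CPM in wild-type embryos and at 7.88, 4.13, 9.54, 4.15 and 5.84 in *Lmx1a*-/- embryos. Wild-type embryo 4 stood far above the rest, and the groups did not overlap. The mean fell from 26.6 ± 17.2 to 6.31 ± 2.37 (log2 fold change -2.07, SE 0.37, FDR = 0.0102 by edgeR's quasi-likelihood test). Leaving out 1 embryo at a time moved the log2 fold change between -2.27 and -1.60, and it passed in all 10 of these fits.

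*H19* stood at 160, 220, 256, 927 and 91.4 normalized CPM in wild-type and at 151, 54.0, 179, 47.6 and 77.2 in *Lmx1a*-/- embryos. The groups overlapped, and the wild-type SD of 339 exceeded the mean of 331, since wild-type embryo 4 alone was at 927. The log2 fold change of -1.7 did not pass (SE 0.56, FDR = 0.145 by edgeR's quasi-likelihood test). Without wild-type embryo 4 it was -0.84 with an FDR of 0.35, and without wild-type embryo 5 it was -1.94 and passed, with an FDR of 0.0894. Igf2 is also made in large amounts by the meninges and blood vessels of the embryonic brain. The markers of meninges and mesenchyme were at 788, 486, 1170, 836 and 644 normalized CPM summed in wild-type embryos 1 to 5, so that embryo 4 was second to embryo 3. Those of endothelium and pericytes were at 173, 91.9, 157, 69.2 and 122 in the same embryos, lowest in embryo 4, and were not used as a covariate. With the mean log2 level of the meninges and mesenchyme markers as a covariate, *Igf2* had a log2 fold change of -1.91 and an FDR of 0.0182, and *H19* of -1.52 with an FDR of 0.209.

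The way reads were counted bears on the level of *Igf2*. Of its exonic bases 64.5% are shared, on the same strand with the gene model *Gm49394* and on the other with *Igf2os*. *Gm49394* had 0 counts in all 10 libraries, so reads on the bases it shares may also be missing from *Igf2*, which was not tested. *Igf2os* was at 1.01, 1.94, 1.65, 8.35 and 0.776 normalized CPM in wild-type and 1.86, 0.109, 1.64, 0.332 and 0.835 in *Lmx1a*-/- embryos, highest in the same wild-type embryo 4. It did not pass (log2 fold change -1.49, SE 0.74, FDR = 0.338 by edgeR's quasi-likelihood test), and since the strand setting of the counting is not stated, its reads and those of *Igf2* cannot be told apart. Of the 14 other genes tested within 500 kb of *Igf2*, none was called by edgeR. At an unadjusted p under 0.05 there was 1, beside 8.7% lower and 7.66% higher of all genes.

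Wild-type embryo 4 held the highest level of other imprinted genes too. The amino acid transporter gene *Slc38a4* stood at 10.04, 7.4, 15.6, 26.5 and 7.06 normalized CPM in wild-type and at 9.81, 1.96, 10.2, 4.4 and 5.39 in *Lmx1a*-/- embryos (log2 fold change -1.06, SE 0.44, FDR = 0.247 by edgeR's quasi-likelihood test). *Airn*, the noncoding RNA antisense to *Igf2r*, was at 24.5 there and between 3.73 and 11.8 in the other wild-type embryos. *Cdkn1c* and *Mirg* had their highest wild-type level there as well, at 71.2 and 5.4. *Magel2* at 0.571, *Mkrn3* at 3.63, *Nap1l5* at 0.519 and *Ube3a* at 127 had their lowest level of all libraries in the same embryo.

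**Figure D5:**
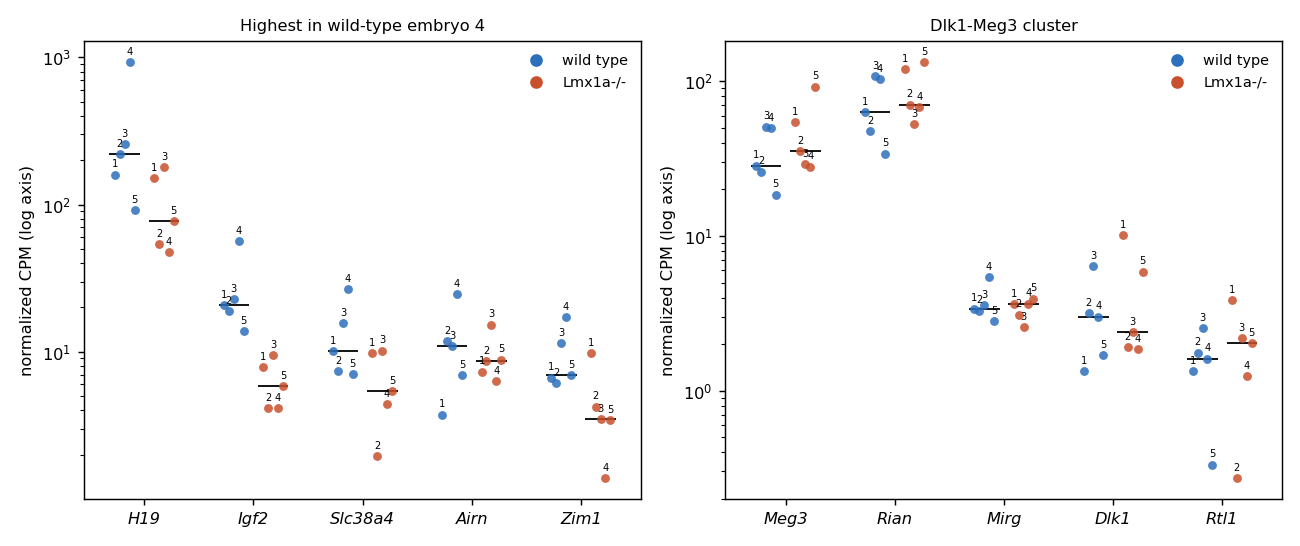
Normalized CPM on a log axis with 1 point per embryo (its number beside it) and a line at the median of each genotype (wild type in blue, *Lmx1a*-/- in orange). On the left, 5 imprinted genes reach their highest level in wild-type embryo 4, from 17.1 for *Zim1* to 927 for *H19*. On the right, genes of the *Dlk1*-*Meg3* cluster overlap between the genotypes, with *Meg3* and *Rian* highest in *Lmx1a*-/- embryo 5.

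The *Kcnq1ot1* cluster on distal chromosome 7 is governed by the paternally expressed noncoding RNA *Kcnq1ot1*, which silences its neighbors on the same allele. *Kcnq1ot1* stood at 493, 760, 574, 826 and 714 normalized CPM in wild-type and at 840, 861, 843, 903 and 897 in *Lmx1a*-/- embryos. Every *Lmx1a*-/- library lay above every wild-type library, but wild-type embryo 4 came close to the lowest of them, and the wild-type spread was wide. The difference did not pass (674 ± 137 against 869 ± 29.5, log2 fold change 0.37, SE 0.12, FDR = 0.133 by edgeR's quasi-likelihood test). *Cdkn1c*, the gene of the cell cycle inhibitor p57 and a target of this silencing, was at 43.5 ± 17.5 and 51.3 ± 7.72 (log2 fold change 0.24, SE 0.22, FDR = 0.629), and 30.7% of its exonic bases are shared with another model on the other strand. *Kcnq1* and the transporter gene *Slc22a18* reached at most 0.637 and 2.02 normalized CPM in a library. *Slc22a18* had the most negative log2 fold change of the 43 genes, -3.38, with an SE of 1.41 and an FDR of 0.248, and wild-type embryo 4 was the library at 2.02 while the other wild-type libraries held 0 to 0.496.

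The *Dlk1*-*Meg3* cluster on chromosome 12 carries the paternally expressed *Dlk1*, *Rtl1* and *Dio3* and the maternally expressed noncoding RNAs *Meg3*, *Rian* and *Mirg*. None of the 6 passed the threshold by edgeR or had an unadjusted p under 0.05, and 5 had a positive log2 fold change, with a median of 0.40. *Rian*, a host of small nucleolar RNAs and the highest of the cluster, was at 63.3, 47.4, 108, 103 and 34.1 normalized CPM in wild-type and at 120, 70.8, 52.9, 68.1 and 133 in *Lmx1a*-/- embryos. The groups overlapped over most of their range (log2 fold change 0.32, SE 0.32, FDR = 0.67). *Meg3* averaged 34.8 ± 14.7 and 47.9 ± 27.1, and it was highest in *Lmx1a*-/- embryo 5, at 92.6. In wild-type embryos *Meg3* and *Rian* had the same 2 libraries on top, embryos 3 and 4, and in *Lmx1a*-/- embryos also the same 2, embryos 1 and 5. *Dlk1*, a delta-like membrane protein, was low, at 3.12 ± 1.99 and 4.42 ± 3.58, and *Mirg*, *Rtl1* and the deiodinase gene *Dio3* averaged at most 3.7 in either genotype.

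The *Snrpn* cluster on chromosome 7, whose human counterpart is affected in Prader-Willi and Angelman syndromes, had 6 tested genes, all with a positive log2 fold change, between 0.061 and 0.45, and a median of 0.27. None passed by edgeR, and 1, *Peg12*, had an unadjusted p under 0.05, beside 7.66% of all genes that were higher at that p. *Ube3a*, the ubiquitin ligase expressed from the maternal allele in neurons, was the highest of the cluster, at 147, 144, 143, 127 and 189 normalized CPM in wild-type and 170, 185, 163, 171 and 171 in *Lmx1a*-/- embryos. Wild-type embryo 5 was above all *Lmx1a*-/- libraries and the other wild-type embryos below them (log2 fold change 0.19, SE 0.095, FDR = 0.33). Without that embryo the log2 fold change was 0.29 and the FDR 0.0706. Of its exonic bases 27.3% lie opposite other transcripts, among them *Snhg14*, the antisense transcript of the paternal allele.

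*Mkrn3*, which encodes a makorin RING-finger protein, was at 6.01, 5.68, 6.0, 3.63 and 4.06 normalized CPM in wild-type and 6.68, 7.39, 6.40, 6.09 and 7.13 in *Lmx1a*-/- embryos. The groups did not overlap, with the nearest libraries at 6.01 and 6.09, and the difference did not pass (log2 fold change 0.41, SE 0.19, FDR = 0.314 by edgeR's quasi-likelihood test). The MAGE-family genes *Ndn*, at 43.8 ± 9.06 and 47.8 ± 5.76, and *Magel2*, at 2.48 ± 1.14 and 3.40 ± 0.67, overlapped. *Peg12* was at 14.8 ± 2.87 and 18.9 ± 2.48 with an FDR of 0.282. *Snrpn*, at 9.89 ± 1.27 and 10.3 ± 2.16, shares 34.1% of its exonic bases with *Snurf* and other models, and *Snurf* had 0 counts in all 10 libraries, so its level may leave out reads on the shared bases.

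Of the remaining loci, *Nnat* had by far the highest level. It encodes neuronatin, a small membrane protein of the developing brain, is expressed from the paternal allele and sits in an intron of *Blcap*. *Nnat* stood at 3453, 3558, 1814, 2471 and 3936 normalized CPM in wild-type and at 2380, 2131, 2231, 980 and 880 in *Lmx1a*-/- embryos. Wild-type embryo 3 lay inside the *Lmx1a*-/- range, and *Lmx1a*-/- embryos 4 and 5 were below the other libraries. The mean was 3046 ± 876 against 1721 ± 728 (log2 fold change -0.82, SE 0.29, FDR = 0.166 by edgeR's quasi-likelihood test). Without wild-type embryo 3 the log2 fold change was -0.96 and passed, with an FDR of 0.091. *Nnat* alone made up 29.8% to 44.1% of the summed level of the 45 genes in wild-type and 15.6% to 34.6% in *Lmx1a*-/- libraries. *Blcap* was at 36.9 ± 9.36 and 31.6 ± 3.11 and did not pass (FDR = 0.543).

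At 4 further loci the differences were positive, with an unadjusted p under 0.05 and an FDR over the threshold. *Grb10*, an adaptor that restrains insulin and IGF receptors, was expressed from 697 to 795 normalized CPM in wild-type and from 772 to 856 in *Lmx1a*-/- CH (log2 fold change 0.16, SE 0.062, FDR = 0.219 by edgeR's quasi-likelihood test). *Igf2r*, the receptor that clears IGF2, was at 144 ± 10.2 and 174 ± 24.9 (log2 fold change 0.27, SE 0.095, FDR = 0.166), with *Airn* at 11.6 ± 7.94 and 9.27 ± 3.5. *Plagl1*, a zinc-finger factor known to regulate other imprinted genes, was at 108 ± 28.3 and 147 ± 33.2 (log2 fold change 0.44, SE 0.18, FDR = 0.23). *Inpp5f*, an inositol phosphatase gene with an imprinted brain transcript, came nearest to the threshold among the genes with a positive value, at 69.7 ± 8.58 and 94.1 ± 17.2 (log2 fold change 0.43, SE 0.13, FDR = 0.103). Wild-type embryo 3 at 81.4 kept the groups from separating, and *Inpp5f* passed with DESeq2, at an FDR of 0.0314, and with 4 other settings of scaling, filter or test.

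*Mest*, an alpha/beta hydrolase gene of embryonic growth, ranged from 248 to 572 normalized CPM in wild-type and from 319 to 510 in *Lmx1a*-/- embryos, and the sign of its small difference depended on which embryos were included (log2 fold change -0.068, SE 0.2, FDR = 0.907). It shares bases with *Copg2* on the other strand, which was at 63.9 ± 5.52 and 58.0 ± 3.76. The trafficking gene *Trappc9* was at 28.8 ± 2.52 and 22.9 ± 3.92, with wild-type libraries from 25.7 and *Lmx1a*-/- libraries up to 26.5, and did not pass (log2 fold change -0.33, SE 0.13, FDR = 0.212 by edgeR's quasi-likelihood test). *Commd1*, *Zrsr1*, *Impact*, *Gnas* and *Nap1l5* had log2 fold changes between -0.20 for *Gnas* and 0.22 for *Nap1l5*, with a lowest FDR of 0.677. Of the exonic bases of *Gnas*, 22% are shared with *Nespas* and *Gm20721* on the other strand. Its level may leave out reads on these bases, which was not tested. *Rasgrf1*, a Ras exchange factor gene, reached at most 2.7 normalized CPM (log2 fold change 0.62, SE 0.74, FDR = 0.734).

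The 5 calls rest on groups that differ in sex, and with 1 wild-type library of the same sex as the *Lmx1a*-/- embryos, sex and genotype cannot be told apart. With the *Xist* level as a covariate none passed by edgeR, and the log2 fold changes were -0.56 for *Peg3*, -0.46 for *Usp29*, -1.15 for *Peg10*, -2.21 for *Asb4* and -1.64 for *Igf2*. With this covariate 7 imprinted genes had an unadjusted p under 0.05, and the share of all genes at that p was not counted. In that fit 28 genes of all 21664 were lower and 5 were higher.

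Choroid plexus markers shared the lowest and the highest wild-type embryo with most of the 5 lower genes. Their sum was 499, 530, 177, 381 and 461 normalized CPM in wild-type embryos 1 to 5, and *Peg3*, *Usp29*, *Peg10* and *Asb4* were, like it, lowest in embryo 3 and highest in embryo 2 among wild types. In *Lmx1a*-/- embryos 1 to 5 the sum was 190, 174, 260, 243 and 244, highest in embryo 3, where *Peg3* and *Peg10* were lowest. Markers of Cajal-Retzius cells, early neurons born in the CH, were at 557, 612, 401, 421 and 609 in wild-type embryos 1 to 5. They too were lowest in embryo 3 and highest in embryo 2. The CH markers were at 4058, 4478, 2562, 3497 and 4812, lowest in embryo 3 and highest in embryo 5. Among imprinted genes that were not called, *Sgce*, *Ppp1r9a*, *Mest*, *Blcap* and *Nnat* were also lowest in wild-type embryo 3. *Meg3*, *Rian* and *Plagl1* had their highest wild-type level there. The choroid plexus markers themselves differed between the genotypes, with a negative log2 fold change in 17 of 18 tested and a median of -1.09. As a covariate, their mean log2 level therefore overlaps with genotype, and the 2 cannot be fully told apart. With this covariate the SE of *Asb4* rose from 0.28 to 0.41, and none of the 5 lower genes passed by edgeR. In that fit 5 imprinted genes had an unadjusted p under 0.05, and the share of all genes at that p was not counted. The log2 fold changes of the 5 lower genes were then -0.23 for *Peg3*, -0.14 for *Usp29*, -0.71 for *Peg10*, -1.07 for *Asb4* and -1.37 for *Igf2*, and 6 genes of all were lower and 4 higher. From public in situ images, the paper lists *Peg3* and *Asb4* as expressed only or mainly in the CH. The part of choroid plexus content in the lower levels was not tested further.

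Of 24 genes that set, keep or erase imprints, 21 were tested, and 3 were higher and 0 lower past the threshold by edgeR, beside 1.72% higher and 2.29% lower of all genes. At an unadjusted p under 0.05, 6 were higher and 1 was lower, beside 7.66% and 8.7% of all genes. The median log2 fold change was 0.063. *Zfp57*, the zinc-finger protein that keeps methylation at imprinting control regions, rose from 69.3 ± 8.2 to 97.5 ± 8.1 normalized CPM (log2 fold change 0.49, SE 0.095, FDR = 0.0163 by edgeR's quasi-likelihood test), with wild type at 57.7 to 78.2 and *Lmx1a*-/- at 86.3 to 107. *Eed*, a Polycomb subunit, rose from 38.6 to 51.3 (log2 fold change 0.41, SE 0.085, FDR = 0.0236), and *Arid4b*, a chromatin protein tied to imprint control, from 231 to 283 (log2 fold change 0.29, SE 0.075, FDR = 0.0682). In all 3 the groups did not overlap, as in 2.17% of all genes with the higher level in *Lmx1a*-/- CH. The partner of Zfp57, *Trim28*, was at 179 in both genotypes (log2 fold change 0.0016, SE 0.064, FDR = 0.994), and the maintenance methyltransferase *Dnmt1* at 227 and 216 (log2 fold change -0.072, SE 0.064, FDR = 0.628). *Ctcf*, whose protein insulates *Igf2* from its enhancers, was at 191 and 195 (log2 fold change 0.033, SE 0.067, FDR = 0.859).

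Of 42 further genes reported as imprinted in at least some tissues, 29 were tested, 3 were lower and 0 higher past the threshold by edgeR, beside 2.29% and 1.72% of all genes. At an unadjusted p under 0.05, 5 were lower and 1 was higher, beside 8.7% and 7.66% of all genes. Their median log2 fold change was -0.15. Beside *Pon2*, the lower genes were *Dcn*, which encodes the matrix proteoglycan decorin of mesenchyme and fell from 41.3 to 24.4 normalized CPM (log2 fold change -0.76, SE 0.2, FDR = 0.074 by edgeR's quasi-likelihood test), and *Bcl2l1*, a survival gene of the Bcl2 family, which fell from 31.7 to 21.4 (log2 fold change -0.57, SE 0.15, FDR = 0.0674). The groups overlapped in all 3, and no member of this list separated the genotypes, beside 2.27% lower and 2.17% higher of all genes.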

How the data were processed

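RNA-seq of the laser-captured CH at e13.5 was available for embryos of both genotypes, 5 of wild type and 5 of *Lmx1a*-/-. The authors used Trimmomatic for trimming and STAR 2.7.1a for alignment to GRCm38, counted reads per Ensembl gene with HTSeq 0.11.2 and deposited the read counts without normalization. The strand setting is not given in the sources used here. The table has 52508 rows, all naming a gene, and 281 exact repeats were dropped, which left 52227 genes. Symbols, positions and shared exonic bases are from GENCODE M21, which names 52135 of these genes, and promoter letters are from RefSeq. The paper names another Ensembl release for the counting, so the bases shared between genes may differ there.

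A gene was tested where 3 or more libraries held 10 or more counts, in R 4.3.3 with edgeR 4.0.16, using TMM scaling, a trended dispersion and the quasi-likelihood test on all 10 libraries without a covariate. Benjamini-Hochberg adjustment ran over all 21664 genes. The SE was derived from the F statistic as |log2 fold change| over its root. The fit was tested on simulated counts. Within-library ratios used a pseudocount of 0.5 and exact permutation tests. Neighbors are genes within 500 kb of a called gene. The paper uses both sexes and found the CH borders by staining every other section for Lmx1a.

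All 45 genes are accounted for. Values per embryo are given for those past the threshold, those whose genotypes did not overlap, and the gene with the highest mean level in each cluster of at least 3, and *H19*, *Nnat* and *Slc38a4* were added after their values were seen. The imprinted genes, the other lists and their parental alleles were chosen with earlier results of these data known, and the alleles are textbook assignments, not measured here. The lists were imprint regulators, further imprinted genes, and markers of CH, choroid plexus, meninges and mesenchyme, endothelium, red blood cells, microglia, Cajal-Retzius cells, neurons and cortical neuroepithelium. Alternatives were other scalings (RLE, upper quartile, library size only), DESeq2 1.42.0, edgeR's likelihood ratio test, other filters, an FDR of 0.05, a replicate block, each embryo left out, covariates (*Xist*, choroid plexus, meninges and mesenchyme), mitochondrial genes left out, repeated rows kept and the newer dispersion method (legacy = FALSE).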

Additional observations from a re-analysis of the deposited data

Results flagged for a closer look

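Within each group of 5 embryos, the library farthest from the others was compared with Dixon's critical value of 0.71, in 86 groups of 43 genes, and chance alone flags about 1 group in 20. The values that stood apart were 7. *Peg10* in *Lmx1a*-/- embryo 5 was at 150 normalized CPM, against 105 to 116 in the other *Lmx1a*-/- embryos, and *Asb4* in the same embryo was at 43.0 against 18.95 to 19.9. *Igf2* in wild-type embryo 4 was at 56.8 against 13.7 to 22.9 in the other wild-type embryos, *H19* in the same embryo at 927 against 91.4 to 256, and *Slc22a18* there at 2.02 against 0 to 0.496. In *Lmx1a*-/- embryo 3, *Slc22a18* was at 0.204 against 0 to 0.0543, and *Airn* at 15.3 against 6.34 to 8.84. What sets these libraries apart was not tested.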

How the results depend on the processing

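The count of 5 lower imprinted genes stayed between 4 and 7 in every alternative but 2, and the 5 genes kept their direction in all 25. It was 0 with the *Xist* level and 0 with the choroid plexus list as a covariate, both of which differ between the genotypes. Without 1 embryo it was 4 to 6. *Peg3*, *Peg10*, *Asb4* and *Igf2* passed in each of the 10 fits without 1 embryo, while *Usp29* also missed with library size only, an FDR of 0.05 and the meninges and mesenchyme covariate. The embryo numbers pair no embryos (same-numbered libraries correlated at -0.136 to 0.0332), and with the replicate block 4 were lower and 0 higher, *Usp29* being lost at an FDR of 0.107. The count of higher genes was 0 in the report and 1 with upper quartile scaling, 2 with DESeq2, 2 with the likelihood ratio test, 1 without a filter and 1 with legacy = FALSE, drawn from *Inpp5f* and *Kcnq1ot1*, and 0 to 2 without 1 embryo. The median log2 fold change ran from -0.0059 (without *Lmx1a*-/- embryo 4) to 0.11 without 1 embryo. DESeq2 added *Zim1* to the lower genes, the likelihood ratio test *H19* and *Nnat*, and leaving out the filter *H19*.

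Among genes past no threshold, 18 changed sign in some alternative, with a lowest FDR of 0.528. Without 1 embryo, log2 fold changes ran from -0.22 to 0.042 for *Mest*, -0.21 to 0.041 for *Mirg*, -0.036 to 0.15 for *Snrpn*, -0.017 to 0.36 for *Nap1l5*, -0.58 to 0.15 for *Airn*, -0.055 to 0.95 for *Dlk1*, -0.073 to 0.62 for *Rtl1* and -0.017 to 0.12 for *Impact*. With the *Xist* covariate, *Kcnq1* had -0.21, *Slc22a18* 3.85, *Mirg* 0.0044, *Ndn* -0.065, *Magel2* -0.099, *Snrpn* -0.073, *Mest* 0.025, *Nap1l5* -0.20, *Commd1* 0.071 and *Airn* 1.38. With the choroid plexus covariate, *Sgce* had 0.23, *Kcnq1* -0.14, *Plagl1* -0.26, *Ndn* -0.26, *Snrpn* -0.11, *Mest* 0.64, *Copg2* 0.040, *Blcap* 0.33, *Airn* 0.18 and *Gnas* 0.012, and with that of meninges and mesenchyme *Impact* had -0.0098. The cause of these changes was not tested. Genes with a mean under 1 normalized CPM in both genotypes (*Calcr*, *Kcnq1*, *Slc22a18*, *Dio3*, *Phlda2*, *Kcnk9*) give no precise fold change at this depth.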

Other observations

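Compared per kilobase of exon, the imprinted genes of the wild-type CH covered almost the whole range of expression. *Nnat* was at 1666 CPM per kb, above nearly all tested genes, and *H19* at 135, *Mest* at 111, *Grb10* at 81.2, *Peg3* at 79.3 and *Peg10* at 41.6 were each above at least 97.2% of them. *Kcnq1* at 0.0653, *Dio3* at 0.083 and *Rasgrf1* at 0.0844 were above at most 2.09%. The most even genes over embryos were *Grb10*, with a coefficient of variation of 6.03% in wild type and 4.2% in *Lmx1a*-/- CH, and *Copg2*, with 8.64% and 6.47%. *Kcnq1ot1* varied by 20.3% in wild type and by 3.4% in *Lmx1a*-/- CH. Summed over the 45 genes, levels ran from 6091 to 8919 normalized CPM in wild-type and from 5481 to 6876 in *Lmx1a*-/- libraries, and without *Nnat* from 4277 to 5580 and from 4328 to 4755.

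The remaining marker lists, in summed normalized CPM, were 401 to 612 in wild-type and 266 to 416 in *Lmx1a*-/- libraries for Cajal-Retzius cells, the early neurons born in the CH, with *Reln*, *Trp73* and *Lhx1* lower and *Lhx5* higher among 10 tested. Markers of cortical neuroepithelium were at 1713 to 2628 and 2967 to 3815, with *Emx2* and *Vim* higher among 9. Neuronal markers were at 885 to 1435 and 1006 to 1532, those of endothelium and pericytes at 69.2 to 173 and 58.4 to 137, and those of microglia at 18.1 to 37.7 and 20.98 to 37.8, with 0 called in each by edgeR. At an unadjusted p under 0.05, 2 neuronal markers were higher, 2 of endothelium and pericytes were lower and 1 of microglia was higher. Of all genes tested, 2.29% were lower and 1.72% higher past the threshold, and 8.7% and 7.66% at an unadjusted p under 0.05.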
